A study of Mus musculus with 48 samples.

Results

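The antibody-making cells of the gut wall were followed through 52 array probes for immunoglobulin and plasma cell genes, out of 41085 probes on the array. A probe was taken when the array's annotation gave it a single gene symbol that names an immunoglobulin heavy, kappa or lambda gene. Probes for 10 plasma cell genes were added by name: Jchain, Tnfrsf13b, Tnfrsf17, Mzb1, Derl3, Sdc1, Xbp1, Prdm1, Irf4 and Pou2af1. A probe also needed a value on all 6 arrays of the highest dose, which left 52 of 66 candidates, for 38 genes. They are 40 immunoglobulin probes for 28 genes, 11 probes for 9 of the 10 plasma cell genes, and 1 probe for Ighmbp2, a DNA helicase whose symbol merely begins with the same letters. Ighmbp2 is kept apart from the immunoglobulin counts. The probe for Irf4, a transcription factor of plasma cell differentiation, had values on 5 of the 6 arrays and is not a member.

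The series compared jejunal epithelium RNA of female C57BL/6 mice that had been gavaged with sesame oil vehicle or with TCDD, the dioxin 2,3,7,8-tetrachlorodibenzo-p-dioxin and a persistent ligand of the aryl hydrocarbon receptor. The doses were 30, 10, 3, 1, 0.3, 0.1, 0.03 and 0.01 µg/kg, given every 4 days for 28 days (another word in the labels calls the gavage daily). No age is given in the labels. Each of 48 two-colour arrays held the RNA of 1 treated and 1 vehicle animal, and each of 24 such pairs appears on 2 arrays, with Cy3 and Cy5 swapped on the second, so that there were 3 pairs per dose. Every treated animal appears in a single pair, whereas 3 vehicle animals served all doses: vehicle animal 2 in every pair called replicate 1, animal 4 in replicate 2 and animal 6 in replicate 3.

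Each value below is a log2 ratio of treated over vehicle, the mean of the 2 arrays of a pair, and n is the number of pairs. The deposited table does not state the base of the logarithm or the sign of the ratios. The base was read as 2, which is usual for such arrays but was not tested, so every fold below holds only for that base. The direction is likely rather than stated: the textbook TCDD-induced gene Cyp1a1 was above 0 on 12 of 12 arrays at 10 and 30 µg/kg, in both dye orientations. Log ratios hold no level, so the tissue label could not be checked against the levels of epithelial genes. A probe was called at a dose when its limma adjusted p was under 0.05 (Benjamini-Hochberg over all probes tested at that dose).

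Plasma cells are the end stage of B cell differentiation, and most of those in the intestine lie in the connective tissue under the epithelium and make IgA. Their IgA leaves as a dimer held together by the J chain, which the product of Jchain forms, and is carried across the epithelium by the polymeric immunoglobulin receptor. Each plasma cell transcribes a single rearranged heavy chain gene and usually a single rearranged light chain gene, so the signal of a variable segment depends on which clones are in a sample as well as on how many cells are. Bulk RNA cannot tell fewer cells of a type from less RNA per cell.

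At 30 µg/kg, 7 of the 52 member probes were called lower (13.5%) and 0 were called higher. Among all 25025 probes tested at this dose, 2.39% were called lower and 0.655% higher. The 7 probes belong to 6 genes: the J chain gene Jchain with both of its probes, the receptor genes Tnfrsf17 and Tnfrsf13b with 1 probe each, and the heavy chain variable segments Ighv1-77, Ighv1-17 and Ighv1-33. The RefSeq gene annotation lists Ighv1-17 and Ighv1-33, and the uncalled member Ighv4-2, as variable segment pseudogenes, with 5 member probes in all. Of the 51 members other than Ighmbp2, 47 had a mean below 0 (92.2%) and 31 were below 0 in all 3 pairs (60.8%). Over all probes tested, 67.3% had a mean below 0 and 25.0% were below 0 in all 3 pairs. The median member was at -0.46 and the median of all tested probes was at -0.06.

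**Figure D1:**
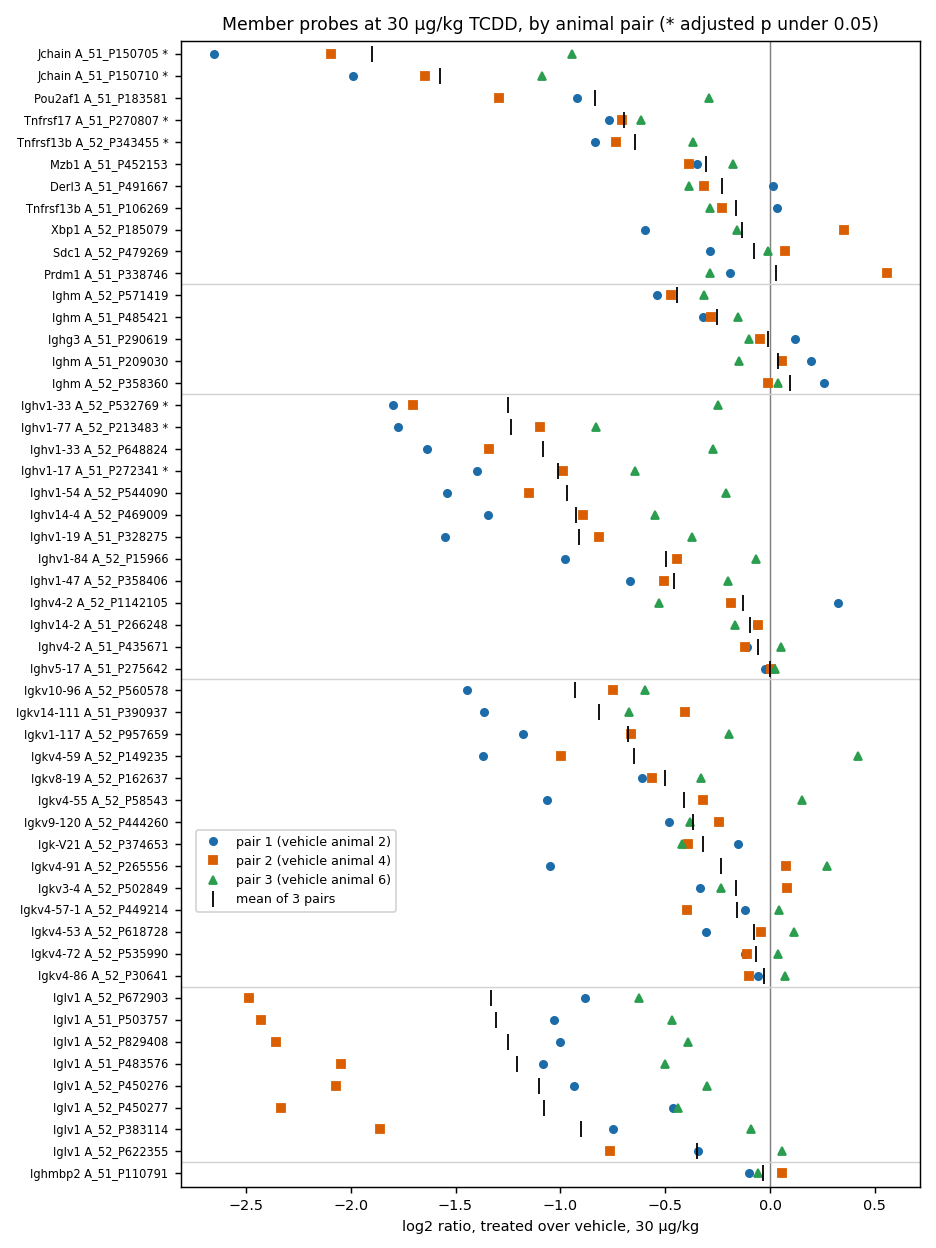
Log2 ratios of treated over vehicle at 30 µg/kg (x axis) for the 52 member probes (rows, grouped by kind), with 1 symbol per animal pair and a bar at the mean of 3 pairs; an asterisk marks an adjusted p under 0.05. The 2 Jchain probes reach the lowest means, -1.90 and -1.57, the Iglv1 probes are lowest in pair 2, and 3 of the 5 constant region probes have means within 0.2 of 0.

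Promoter sequences are shown for the 3 called plasma cell genes and for Pou2af1, which was not called and whose window holds a match to the receptor's core site. They run from 250 bases before the gene's start to 50 after it, taken from RefSeq on build GRCm38.p6. Capitals mark 2 motifs searched on both strands: GCGTG, the core bound by the aryl hydrocarbon receptor with its partner ARNT, and ACGT, the core of sites bound by XBP1. On the minus strand GCGTG reads CACGC.
Jchain, chr5:88527848-88528147, minus strand: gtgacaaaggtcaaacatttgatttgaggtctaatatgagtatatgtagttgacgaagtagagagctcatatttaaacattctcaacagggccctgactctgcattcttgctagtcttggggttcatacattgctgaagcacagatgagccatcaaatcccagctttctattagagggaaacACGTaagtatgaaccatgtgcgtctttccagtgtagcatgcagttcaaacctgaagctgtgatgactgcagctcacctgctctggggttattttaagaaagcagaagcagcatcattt
Tnfrsf17, chr16:11313559-11313858, plus strand: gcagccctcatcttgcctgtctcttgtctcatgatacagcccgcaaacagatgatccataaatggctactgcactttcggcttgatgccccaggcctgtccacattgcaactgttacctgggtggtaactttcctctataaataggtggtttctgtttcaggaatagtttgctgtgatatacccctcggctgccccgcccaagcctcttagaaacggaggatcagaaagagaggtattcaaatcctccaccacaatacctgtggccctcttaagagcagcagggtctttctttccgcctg
Tnfrsf13b, chr11:61126505-61126804, plus strand: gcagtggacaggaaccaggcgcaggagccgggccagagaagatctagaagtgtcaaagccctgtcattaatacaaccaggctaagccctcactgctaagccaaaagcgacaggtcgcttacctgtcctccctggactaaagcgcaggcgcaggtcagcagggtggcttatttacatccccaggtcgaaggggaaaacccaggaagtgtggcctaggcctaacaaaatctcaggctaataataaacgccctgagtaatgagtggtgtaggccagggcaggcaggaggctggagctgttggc
Pou2af1, chr9:51213440-51213739, plus strand: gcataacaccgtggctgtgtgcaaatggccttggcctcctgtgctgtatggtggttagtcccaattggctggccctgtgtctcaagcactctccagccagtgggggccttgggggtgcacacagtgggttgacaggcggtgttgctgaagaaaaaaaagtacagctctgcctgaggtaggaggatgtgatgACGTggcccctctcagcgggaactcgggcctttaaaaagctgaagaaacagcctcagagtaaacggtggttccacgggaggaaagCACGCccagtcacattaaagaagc

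GCGTG was in 4 of the 9 member promoters in the table (Derl3, Pou2af1, Prdm1 and Sdc1) and in 32.4% of all 32851 promoters of the same length. None of these 4 genes was called at 30 µg/kg. ACGT was in 4 of the 9 (Derl3, Jchain, Pou2af1 and Xbp1) and in 30.9% of all promoters. The octamer ATGCAAAT, the site to which the product of Pou2af1 is recruited, was in 0 of the 9 windows and in 1.74% of all promoters. The 9 windows include that of Ighmbp2, which held no match to these motifs, and Mzb1 had no window here. A match is a description of the letters in these windows and no evidence of binding.

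Jchain had the lowest mean of the members at 30 µg/kg. Its probe A_51_P150705 was at -2.65, -2.10 and -0.95 in replicates 1, 2 and 3, and its probe A_51_P150710 at -1.99, -1.65 and -1.09. All 3 pairs were low with both probes, replicate 3 least so. The means were -1.90 ± 0.87 (SD, n = 3; limma adjusted p 0.018) and -1.57 ± 0.45 (adjusted p 0.010), which in base 2 is 3.73-fold and 2.98-fold lower. Both probes were below 0 on 6 of 6 arrays, with means of -1.86 and -1.94 in the 2 dye orientations for the first and -1.57 and -1.58 for the second.

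The 2 Jchain probes ran together. Over the 24 pairs they correlated at 0.99 and differed by a median of 0.13. The range at the other 7 doses was wide: probe A_51_P150705 went from -2.02 to 0.52 with a median of -0.31 over 21 pairs, and A_51_P150710 from -1.79 to 0.40 with a median of -0.36. The lowest of these were 2 pairs of replicate 3 at the lowest doses, with -2.02 at both 0.01 and 0.03 µg/kg for the first probe and -1.50 and -1.79 for the second. The values at 30 µg/kg therefore overlap those at other doses: 4 of 21 pairs at other doses were at or below the highest value at 30 µg/kg with the first probe, and 2 of 21 with the second.

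Within replicates 1 and 2 the order was different. In replicate 1 the first Jchain probe was at 0.52, -0.44, 0.13, -0.69, -1.08, -0.38, -0.45 and -2.65 from the lowest to the highest dose. In replicate 2 it was at 0.38, 0.50, 0.43, 0.26, -0.30, -0.78, -1.31 and -2.10. In both sets the pair at 30 µg/kg was the lowest, which it was not in replicate 3.

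Tnfrsf17 encodes BCMA, a receptor for survival signals that plasma cells carry. It had the tightest pairs of the called members, at -0.77, -0.71 and -0.62 at 30 µg/kg. The mean was -0.70 ± 0.08 (n = 3; adjusted p 0.0066), or 1.62-fold lower in base 2, and all 6 arrays were below 0. At the other doses it lay between -0.63 and 0.39 with a median of -0.17 over 18 pairs with values. Only 1 of these 18 pairs, replicate 1 at 0.3 µg/kg, was at or below the highest pair at 30 µg/kg.

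Tnfrsf13b encodes TACI, a receptor for the same family of ligands, and its 2 probes disagreed. Probe A_52_P343455 was at -0.84, -0.73 and -0.37 at 30 µg/kg, a mean of -0.65 ± 0.25 (adjusted p 0.0092). Probe A_51_P106269 was at 0.04, -0.23 and -0.29, a mean of -0.16 ± 0.17 (adjusted p 0.34). The first was low in every pair and the second lay near 0 in replicate 1. They correlated at 0.25 over 24 pairs, against 0.99 for the 2 Jchain probes, and the annotation ties them to different transcript records.

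Mzb1 encodes a chaperone of the endoplasmic reticulum that helps antibody assembly in plasma and marginal zone B cells. It was at -0.35, -0.38 and -0.18, a mean of -0.30 ± 0.11, and missed the threshold (adjusted p 0.051). The adjusted p was 0.038 to 0.050 in the 3 fits that selected or averaged probes in another way. It was 0.062 to 0.437 in the other 8 fits, with 0.159 after centring, 0.279 after quantile normalization and 0.262 without replicate 1. All 6 arrays were below 0. With Mzb1, the 4 genes used as markers here (Jchain, Tnfrsf13b, Mzb1 and Tnfrsf17) had 6 probes, all 6 with a mean below 0 and 4 called (66.7%). These 4 were taken from the 10 plasma cell genes with earlier results of these data known. Of all 11 plasma cell probes, 10 had a mean below 0 and 4 were called (36.4%). Over all probes tested, 67.3% had a mean below 0 and 2.39% were called lower.

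Sdc1, Xbp1, Prdm1 and Derl3 were not called. Sdc1, the syndecan that marks plasma cells and also sits on epithelial cells, was at -0.28, 0.07 and -0.01 (mean -0.07 ± 0.19, adjusted p 0.69). Xbp1, the secretory transcription factor, was at -0.60, 0.35 and -0.16 (mean -0.13 ± 0.47, adjusted p 0.72). Prdm1, which encodes Blimp-1, was at -0.19, 0.56 and -0.29 (mean 0.03 ± 0.46, adjusted p 0.96). For each of these 3 genes the pairs fell on both sides of 0, with replicate 2 the highest. Derl3, which helps export misfolded proteins from the endoplasmic reticulum, was at 0.02, -0.32 and -0.39 (mean -0.23 ± 0.22, unadjusted p 0.011, adjusted p 0.13).

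Pou2af1 encodes the B cell coactivator OBF-1. It was at -0.92, -1.29 and -0.29 at 30 µg/kg, a mean of -0.83 ± 0.51 that was not called (adjusted p 0.22). Over the 8 doses its mean was -0.91 in replicate 2, and -0.20 and -0.13 in replicates 1 and 3, a difference between the replicate sets that was not called (adjusted p 0.053). Replicate 2 was already at -1.15 at 0.01 µg/kg. Of the 21 pairs at other doses, 6 were at or below its mean at 30 µg/kg.

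**Figure D2:**
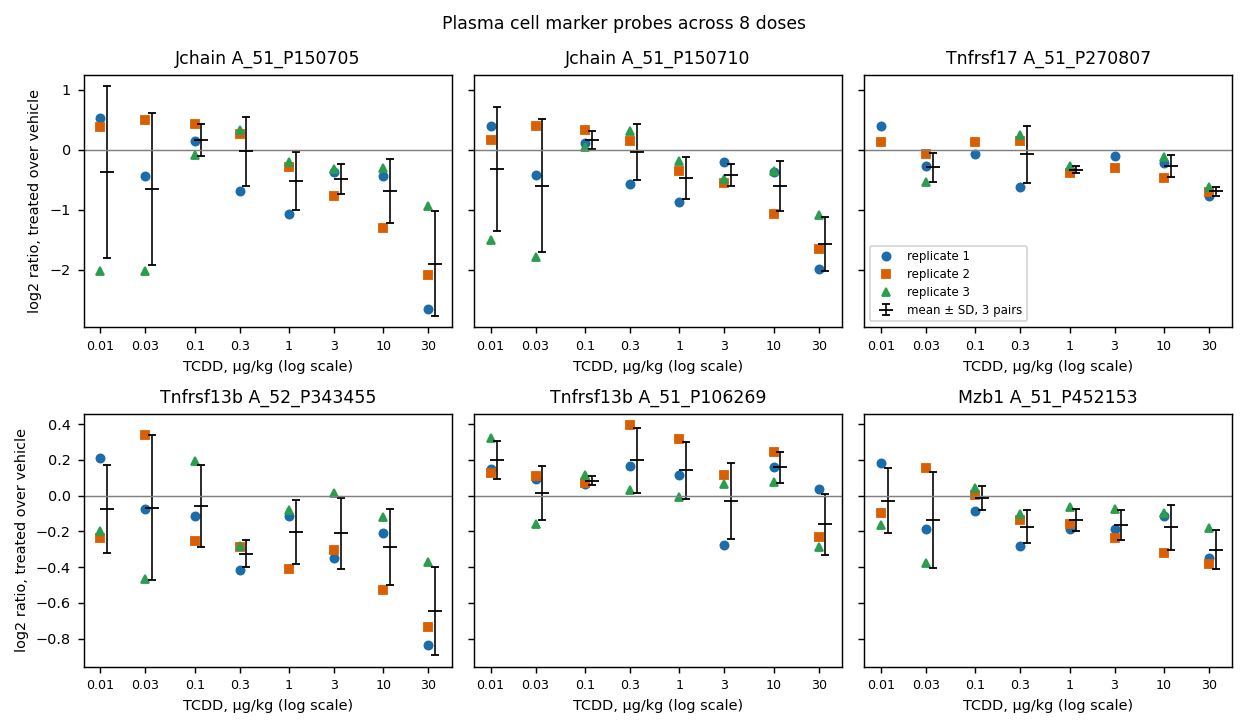
Log2 ratios of treated over vehicle (y axis, with 1 scale for the upper and another for the lower panels) against TCDD dose on a log scale for the 6 probes of the 4 marker genes; symbols are animal pairs by replicate and bars are the mean ± SD where all 3 pairs have a value. At 30 µg/kg all pairs of both Jchain probes, of Tnfrsf17, of Mzb1 and of Tnfrsf13b probe A_52_P343455 are below 0, while 2 pairs of replicate 3 at the lowest doses are as low for Jchain.

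Most immunoglobulin probes had means below 0 at 30 µg/kg, and the size differed by chain. Of the 40 immunoglobulin probes, 37 had a mean below 0, 25 were below 0 in all 3 pairs and 3 were called lower (7.5%). Their median was -0.48, with pair medians of -0.71, -0.49 and -0.22 in replicates 1, 2 and 3. Of the 40, 19 had a mean at or below -0.5 and 10 at or below -1, while 12 were within 0.2 of 0. The 3 calls were all among the 13 heavy chain variable probes, of which 12 had a mean below 0. Ighv1-47 (mean -0.46 ± 0.24, adjusted p 0.056) was called in the fit with a replicate block for the vehicle animal (adjusted p 0.0498). Variable segments are close copies of each other, so a probe may catch transcripts of related segments, and the segment named is uncertain.

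Ighv1-77 was at -1.78, -1.10 and -0.83 at 30 µg/kg. Its mean was -1.24 ± 0.49 (adjusted p 0.011) and all 6 arrays were below 0. Ighv1-17 was at -1.40, -0.99 and -0.64, a mean of -1.01 ± 0.38 (adjusted p 0.029). No pair of another dose was as low as these means: the lowest was -0.90 among 19 pairs for Ighv1-77 and -0.86 among 21 pairs for Ighv1-17. At or below the highest pair at 30 µg/kg were 1 of these 19 pairs and 3 of these 21. Ighv1-77 had no value in replicate 3 at 0.01 and 0.03 µg/kg, where Ighv1-17 was at -0.83 and -0.82 and Jchain was also low. In both genes replicate 1 was the lowest pair at 30 µg/kg and replicate 3 the highest.

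Ighv1-33 had 2 probes that ran together, with a correlation of 0.95 over 24 pairs and a median difference of 0.15. Probe A_52_P532769 was at -1.80, -1.70 and -0.25 (mean -1.25 ± 0.87, adjusted p 0.036). Probe A_52_P648824 was at -1.64, -1.34 and -0.27 (mean -1.08 ± 0.72, adjusted p 0.068). Only the first passed the threshold, but the probes differ less from each other than the pairs do. Replicate 3 was near the other doses in both: 11 and 10 of 21 pairs at other doses were at or below it.

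At the other end were Ighv5-17, at -0.02, 0.005 and 0.02, and Ighv4-2. The 2 probes of Ighv4-2 had means of -0.06 and -0.13, and did not run together (correlation -0.05 over 24 pairs). Ighv5-17 stayed between -0.17 and 0.31 at the other doses.

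Of the 5 constant region probes 0 were called (2 had an unadjusted p under 0.05), and 3 had means within 0.2 of 0. Ighg3, the constant region of IgG3, was at 0.12, -0.05 and -0.10 (mean -0.01 ± 0.11, adjusted p 0.96). Ighm, the constant region of IgM, had 4 probes. Probe A_52_P571419 was at -0.54, -0.47 and -0.32 (mean -0.44 ± 0.12, adjusted p 0.19), and A_51_P485421 at -0.32, -0.28 and -0.15 (mean -0.25 ± 0.09, adjusted p 0.27). Probe A_51_P209030 was at 0.20, 0.06 and -0.15 (mean 0.04 ± 0.17, adjusted p 0.87), and A_52_P358360 at 0.26, -0.01 and 0.04 (mean 0.10 ± 0.14, adjusted p 0.55).

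The first 2 Ighm probes correlated at 0.81 over 24 pairs, and every other combination lay between -0.18 and 0.27. They were also low at other doses in replicate 2, where A_52_P571419 had a mean of -0.48 over 8 doses, against -0.29 and -0.17 in replicates 1 and 3. At 10 µg/kg its pairs were -0.49, -0.69 and 0.04. The values at 30 µg/kg do not stand apart from these. The constant regions of IgA and of the kappa chain were not analysed here.

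By median, kappa variable segments lay between the heavy chain variable and the constant region probes. All 14 kappa probes had a mean below 0 at 30 µg/kg, 6 were below 0 in all 3 pairs and 0 were called (5 had an unadjusted p under 0.05). Their means ran from -0.93 to -0.03 with a median of -0.34. The 7 probes of the Igkv4 family, a group of segments alike in sequence, had means from -0.65 to -0.03 with a median of -0.16, while the 8 probes of the heavy chain family Ighv1 lay between -1.25 and -0.46 with a median of -0.99. The highest kappa probe was Igkv4-86, at -0.06, -0.10 and 0.07. The pair medians were -0.55, -0.35 and -0.08, again lowest in replicate 1 and highest in replicate 3.

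Iglv1, a lambda chain variable segment, was measured by 8 probes, and its low values came mostly from 1 set of pairs. At 30 µg/kg, 7 of the 8 probes were between -1.08 and -0.46 in replicate 1, between -2.48 and -1.86 in replicate 2 and between -0.62 and -0.09 in replicate 3. Their means were -1.33 to -0.90, the 2 lowest of all immunoglobulin probes among them, and none was called (adjusted p 0.076 to 0.20). The lowest, A_52_P672903, was at -0.88, -2.48 and -0.62 (mean -1.33 ± 1.01). Next were A_51_P503757 at a mean of -1.31 ± 1.01 and A_52_P829408 at -1.25 ± 1.01.

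Replicate 2 was low in Iglv1 well below the highest dose. The median of the 7 probes in replicate 2 was -1.10 at 0.01, -0.56 at 0.03, -0.06 at 0.1 and 0.39 at 0.3 µg/kg. It then went to -0.89 at 1, -1.71 at 3, -1.43 at 10 and -2.33 at 30 µg/kg. In replicate 3 the same median reached 0.84 at 3 µg/kg and -1.02 at 0.01 µg/kg. A median below -1 was seen in 4 of 8 pairs of replicate 2, 1 of 8 of replicate 3 and 0 of 8 of replicate 1.

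**Figure D3:**
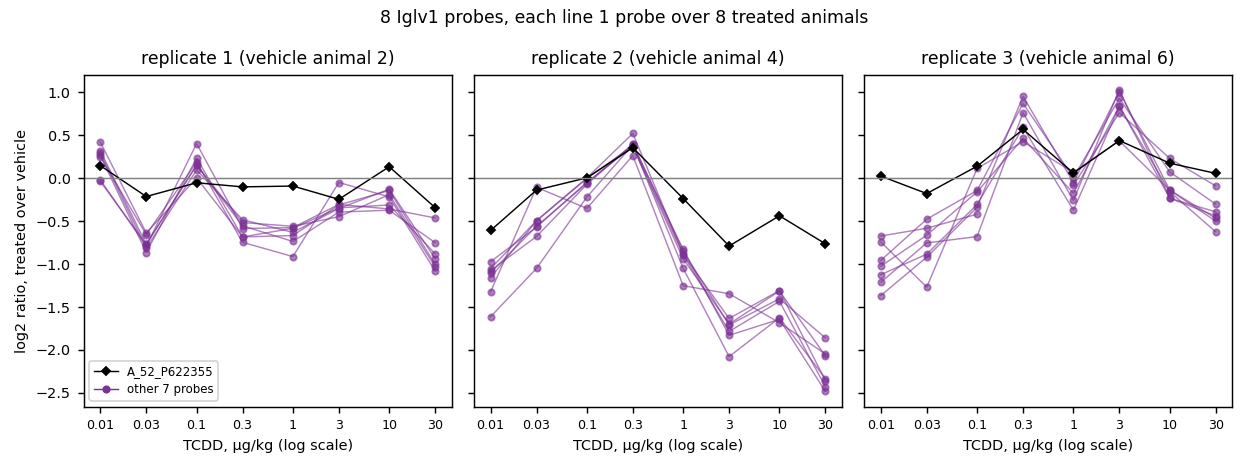
Log2 ratios of treated over vehicle (y axis) for 8 Iglv1 probes against TCDD dose on a log scale, 1 panel per replicate; every point of a panel is a different treated animal set against the same vehicle animal. The 7 purple probes move together, lowest in replicate 2 at 3, 10 and 30 µg/kg, and the black probe A_52_P622355 follows them over a smaller range.

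The eighth Iglv1 probe, A_52_P622355, carried the same pattern at a smaller scale. At 30 µg/kg it was at -0.34, -0.76 and 0.06 (mean -0.35 ± 0.41, adjusted p 0.33). Its SD over the 24 pairs was 0.34, against 0.64 to 0.82 for the other 7 probes. It still correlated with them at 0.85 to 0.93, close to the 0.86 to 0.99 among the 7.

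Jchain and most heavy chain variable segments ran together over the 24 pairs. Set against the mean of the 2 Jchain probes, the 13 heavy chain variable probes had correlations of -0.18 to 0.94 with a median of 0.83. The 14 kappa probes had a median of 0.57, the 8 Iglv1 probes of 0.59 and the 5 constant region probes of -0.11. Differences between the replicate sets enter these values, and within a set some light chain probes ran closer to Jchain. Igkv10-96 was at 0.98, 0.86 and 0.91 within replicates 1, 2 and 3 (0.74 over all pairs). Iglv1 probe A_51_P503757 was at 0.85, 0.84 and 0.79 (0.63 over all pairs). Not all did so: Igkv9-120 was at 0.69, 0.76 and -0.02 (0.55 over all pairs). The pairs share 3 vehicle animals, so these correlations describe the pairs and carry no p. The closest member, Ighv14-4, a heavy chain segment singled out after its values were seen, kept the relation within each set of 8 pairs with 1 vehicle animal: 0.94, 0.97 and 0.97 within replicates 1, 2 and 3, and 0.93 over the 21 pairs without the highest dose. A second Ighv14-4 probe, which lacks a value in replicate 2, was at -0.11 and -0.25 in replicates 1 and 3 at 30 µg/kg, against -1.34 and -0.55 for the member.

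Among the plasma cell genes, Tnfrsf17 was the most like Jchain (0.88 over 21 pairs), followed by Mzb1 (0.81 over 24) and Tnfrsf13b probe A_52_P343455 (0.69). Without the highest dose these were 0.83, 0.76 and 0.49. With the 2 pairs farthest from the Jchain median left out they were 0.88, 0.76 and 0.58. Xbp1 and Prdm1 each correlated with Jchain at 0.17.

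**Figure D4:**
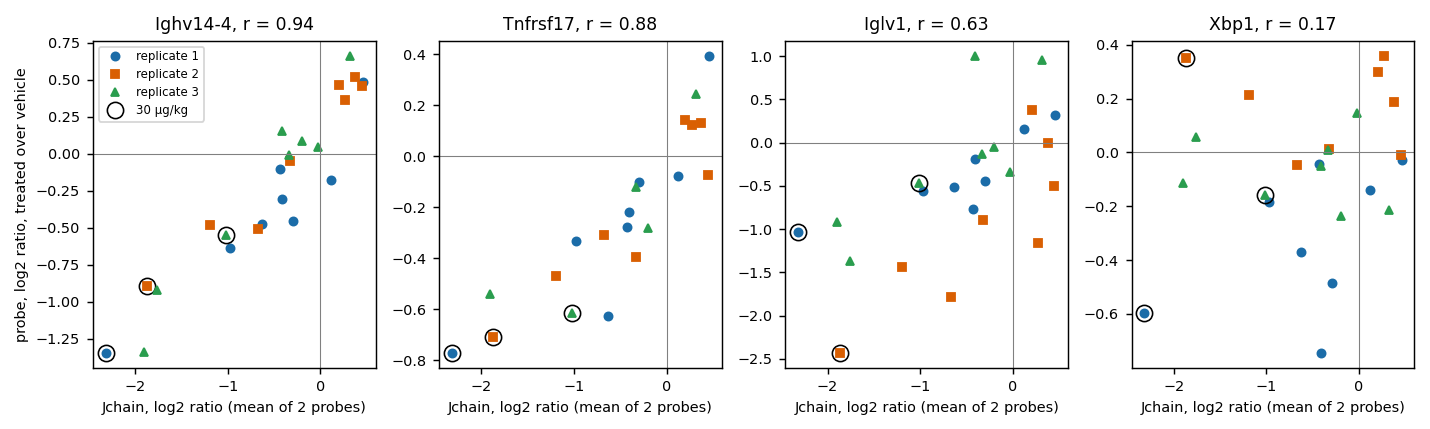
Log2 ratio of treated over vehicle of 4 member probes (y axes, each with its own scale) against the mean log2 ratio of the 2 Jchain probes (x axis) in the animal pairs with values, by replicate, with pairs at 30 µg/kg circled. Ighv14-4 and Tnfrsf17 follow Jchain in all 3 replicates, with correlations of 0.94 and 0.88 over all pairs, and Xbp1 at 0.17 does not. Iglv1 probe A_51_P503757 is at 0.63 over all pairs and at 0.85, 0.84 and 0.79 within replicates 1, 2 and 3.

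At the 7 lower doses no member was called. The share of all tested probes called was 0% at 0.01, 0.00859% at 0.03, 0.0128% at 0.1, 1.24% at 0.3, 0% at 1, 0% at 3 and 0.167% at 10 µg/kg, so that calls were rare or absent for any gene at most of these doses. Of the 51 members without Ighmbp2, those with an unadjusted p under 0.05 numbered 2, 3, 0, 5, 2, 1 and 3 in the same order, against 30 at 30 µg/kg (58.8%). Over all probes the share with such a p was 3.65%, 9.48%, 4.31%, 16.6%, 11.9%, 3.78% and 6.97% at these doses and 18.0% at 30 µg/kg. At the 7 lower doses the members' shares were 0% to 10.6%. The median of the immunoglobulin probes was between -0.19 and 0.03 at the 7 lower doses. At 10 µg/kg the first Jchain probe was at -0.45, -1.31 and -0.31 and Tnfrsf17 at -0.22, -0.47 and -0.12, all below 0.

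Neither test across doses called a member. The slope on log10 dose, fitted to probes with values on all 48 arrays, called 0.259% of all probes and 0 of 46 members. It was below 0 for 40 of the 45 immunoglobulin and plasma cell probes (88.9%, against 53.3% of all probes), with 11 at an unadjusted p under 0.05 (24.4%, against 10.2%), and steepest for Jchain at -0.32 per log10 unit of dose (adjusted p 0.42). The difference between 30 and 10 µg/kg called 0.0209% of all probes and 0 members. Of the members, 5 had an unadjusted p under 0.05 (10%, against 6.37% of all probes). The difference was below 0 for 46 of 50 members tested (92%, against 67.5% of all probes). It was -1.21 and -0.97 for the 2 Jchain probes (adjusted p 0.82 and 0.77) and -0.43 for Tnfrsf17 (adjusted p 0.73). Its estimate leaves the level of the vehicle animals out. The test did not pair the doses by vehicle animal, so differences between replicate sets remain in the spread behind these p-values.

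The 3 replicate sets differed from each other in many genes, and the members were no exception. Each set has its own vehicle animal, so that animal and anything else that differs between the sets cannot be told apart. A test of the replicate sets against each other within doses called 22.2% of all probes and 10 of 46 members (21.7%), a share near the background. The 10 were 7 kappa segments, Iglv1 probe A_52_P622355, Prdm1 and Xbp1. Igkv14-111, for example, had a mean over the 8 doses of -0.61 in replicate 1, 0.25 in replicate 2 and -0.41 in replicate 3 (adjusted p 0.0014).

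**Figure D5:**
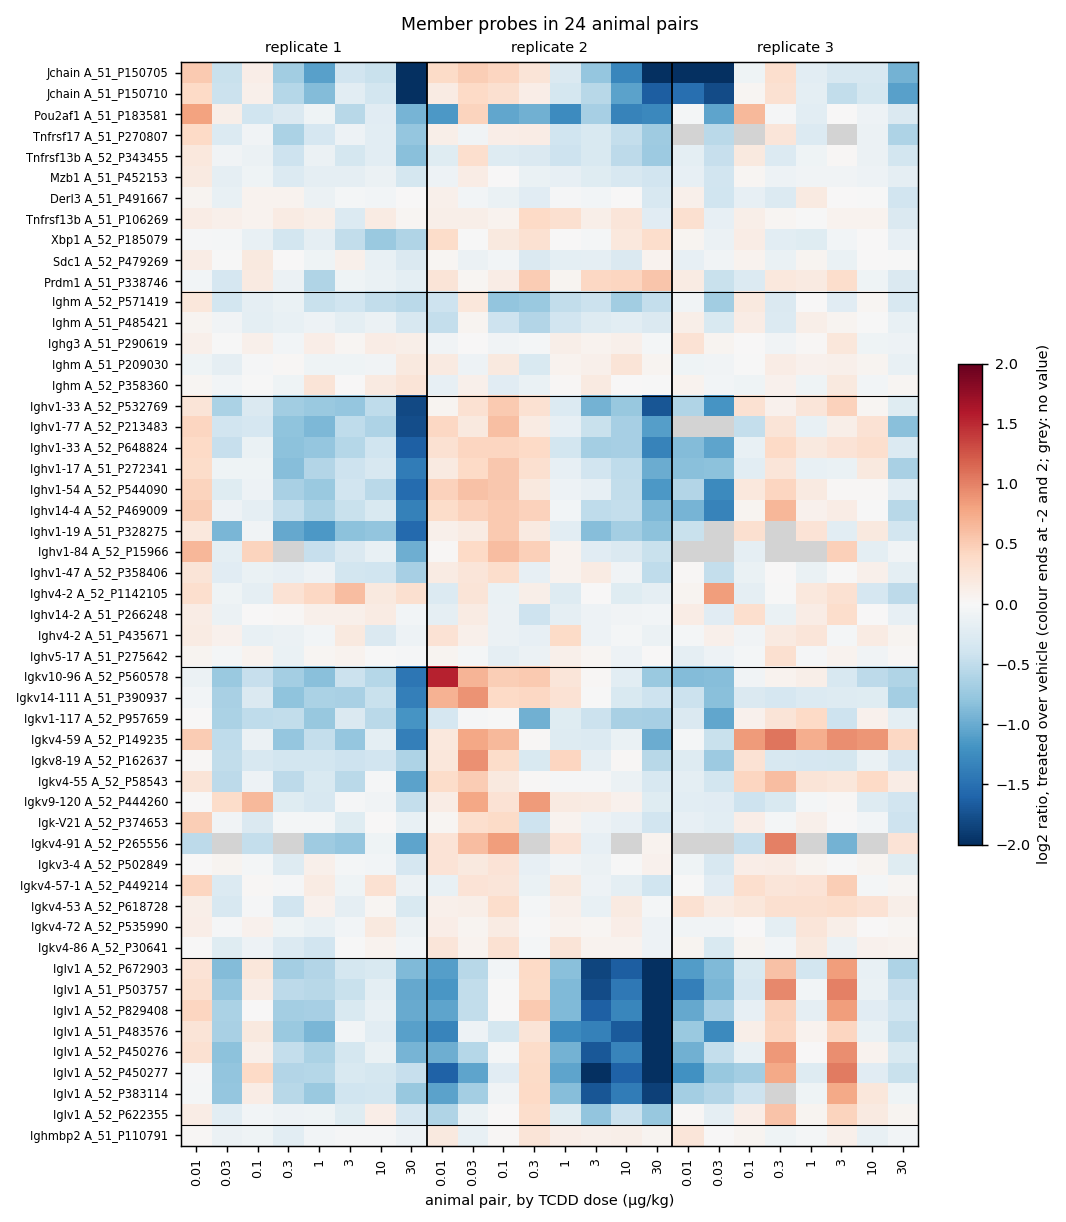
Log2 ratio of treated over vehicle, as colour from -2 (blue) to 2 (red), for the 52 members (rows) in 24 animal pairs (columns, ordered by dose within each replicate); grey cells have no value. The Jchain and Ighv1 rows are below 0 in all 3 replicates at 30 µg/kg, the Jchain rows are also low at the 2 lowest doses of replicate 3, and the Iglv1 rows are bluest in replicate 2.

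Most of the 7 calls at 30 µg/kg were lost without replicate 1, and all of them without replicate 2. A replicate was left out at all 8 doses, which also changes the shared estimate of the spread. A lost or gained call therefore cannot be assigned to the pair at 30 µg/kg alone. Without replicate 1 only Tnfrsf17 stayed called (adjusted p 0.038), and the 7 probes had means of -1.52 to -0.55 (adjusted p up to 0.28). Without replicate 2 none of the 7 was called (means -1.80 to -0.60, adjusted p 0.071 to 0.24), while another member, Igkv14-111, was. Without replicate 3 all 7 were called and 4 more members with them: Ighv14-4, Ighv1-54, the second Ighv1-33 probe and Igkv1-117. The means of the 7 were below 0 in each of these fits, which was fixed in advance, since each probe was below 0 in all 3 pairs. With each array centred on its median, which moved the median of all probes from -0.06 to 0.002, Ighv1-17 and Ighv1-33 lost their calls (adjusted p 0.054 and 0.060), and after quantile normalization only Tnfrsf17 was called (adjusted p 0.032, the other 6 at 0.050 to 0.17).

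Replicates 1 and 3 at 30 µg/kg carried a strong signal of exocrine pancreas genes, with pair medians over 16 probes of 3.03 and 0.94, against -0.06 in replicate 2. In replicate 2 at this dose the 2 Jchain probes were at -2.10 and -1.65 and Tnfrsf17 at -0.71. Of 4 pairs at other doses with a pancreas median over 0.5, 3 had both Jchain probes above 0. The fourth, replicate 1 at 1 µg/kg, had a pancreas median of 2.09, the Jchain probes at -1.08 and -0.87 and Tnfrsf17 at -0.33. It and the pair at 30 µg/kg are the 2 lowest pairs of replicate 1 for Jchain. With replicates 1 and 3 left out, none of the 7 members was called on the 1 remaining pair, whose spread was taken from the other doses (means -2.10 to -0.71, adjusted p 0.17 to 0.41). The part of pancreas RNA in these values was not tested.

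Of 57 probes for 32 genes of antibody folding and secretion, 1 was called lower at 30 µg/kg (1.75%, a share near the 2.39% of all probes). It was the probe A_52_P264902 of Dnajc3, a co-chaperone of the endoplasmic reticulum, at -0.61, -0.29 and -0.36 (mean -0.42 ± 0.17, adjusted p 0.015). The other 3 Dnajc3 probes had means of -0.30, -0.24 and 0.01. The median of the list was -0.09, close to the -0.06 of all probes. Creb3l2, Sel1l and Ero1b had the next smallest p and were not called.

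Of 20 probes for 16 genes of IgA transport, homing and survival signals, 0 were called and the median was -0.05. The smallest p were those of Tgfb1 (mean -0.23 ± 0.02, adjusted p 0.067), Tnfsf13b, which encodes the plasma cell survival factor BAFF (-0.18 ± 0.13, adjusted p 0.080), the integrin gene Itga4 (-0.40 ± 0.08, adjusted p 0.089) and the chemokine gene Ccl25 (-0.29 ± 0.21, adjusted p 0.14). All 3 pairs were below 0 with these 4 probes, which were picked by their p in the same pairs. Over all probes tested, 25.0% had all 3 pairs below 0. The other Tnfsf13b probe had a mean of -0.02 and the other 2 Itga4 probes had means of -0.06 and 0.07, so the probes of these genes disagreed.

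Genes of B cells before the plasma cell stage were not called either. Of 16 probes for 13 genes, 0 passed and the median was -0.10. The smallest p were those of Ltb, Cr2, Cd37 and Vpreb3. Ltb, the lymphotoxin beta gene, was at -0.96, -1.31 and -0.59 (mean -0.95 ± 0.36, adjusted p 0.15) and had a mean of -0.92 over all doses in replicate 2. Cr2 was slightly above 0, at 0.14 ± 0.08. Of 9 probes of lymphoid follicle genes, where Ltb, Ccl19, Lta and Bcl6 had the smallest p, 0 were called.

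Other leukocyte lists held a few calls. Thy1, a surface protein of T cells and of stromal cells, was at -0.70, -0.50 and -0.81 (mean -0.67 ± 0.16, adjusted p 0.0016), and the T cell adaptor gene Lat at -0.06, -0.43 and -0.43 (adjusted p 0.036). They were 2 of 19 T cell probes (10.5%, against 2.39% of all probes), with a list median of -0.02. Cd160 (mean -0.30 ± 0.10, adjusted p 0.052) and Cd2 had the next smallest p and were not called. Of 19 macrophage and dendritic cell probes, Adgre1 (mean -0.52 ± 0.18, adjusted p 0.030) and 1 of 2 Itgax probes (-0.39 ± 0.14, adjusted p 0.014) were called, also 10.5%. The next smallest p there were those of Cybb, with probe means of -0.31 and -0.42, and C1qc (mean -0.76 ± 0.58, adjusted p 0.11), which were not called. Smooth muscle and jejunal enterocyte lists had 0 calls among 13 and 18 probes.

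Ighmbp2, the helicase taken in by its letters, was at -0.10, 0.06 and -0.06 at 30 µg/kg (mean -0.03 ± 0.08, adjusted p 0.86).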

How the data were processed

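The deposited values are log2 ratios of 41085 probes on 48 two-colour Agilent arrays; the base 2 is an assumption. Per the labels' protocols, TRIzol RNA was labelled with Cy3 and Cy5 after an Agilent manual. Scanner software, background correction, normalization and filters are not given in the sources used here, and with ratios alone no spot could be left out for a low signal. Of the cells, 25.0% are empty, and an array holds 27341 to 33126 values. The number of arrays limits the precision.

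The 2 arrays of a pair were averaged. As deposited they correlated between -0.25 and 0.54 across probes, and the mean profiles of the 2 dye orientations at -0.59, a dye effect that the average cancels. On each array 203 to 335 probes hold 1 identical value; 269 probes with it on 6 or more arrays count as not measured and were left out, no member among them. Symbols come from the platform annotation (32555 probes with 1 symbol, 32416 matched to RefSeq), and 3 further immunoglobulin probes that name several genes were left out. Of the members, 46 have values on all 48 arrays.

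Each dose mean was tested against 0, two-sided, with limma 3.58.1 (R 4.3.3) on the 24 pairs in 1 fit, with Benjamini-Hochberg adjustment over the 25025 probes at 30 µg/kg (fewer at other doses). All doses share 1 estimate of the spread. Nothing states separate extractions, and the 3 vehicle animals are shared, so p-values measure the spread between these pairs. After dose means were removed, pairs with the same vehicle animal correlated at a mean of 0.28 over 84 combinations and others at -0.14. Pairs with the same replicate number are therefore not independent. The replicate block and the other alternatives are in the closing section. The test between replicate sets and the fit without the pancreas pairs were added after seeing the data. On simulated data with the same 25025 probes at 30 µg/kg, 100% of shifts of -2 and 90% of shifts of -1 were recovered. The simulated noise was independent between pairs, unlike that of pairs sharing a vehicle animal, and the shifted probes were drawn at random. These shares therefore do not tell how often such a shift is recovered in members with a wide spread, such as Iglv1.

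The members and lists were chosen with earlier results of these data known. Named genes include the plasma cell genes, every called immunoglobulin probe, the 5 lowest and 5 highest immunoglobulin means at 30 µg/kg, all constant region probes and genes with several probes. From the secretion, IgA, follicle and leukocyte lists they are the called genes and the 4 smallest p. No gene of the pancreas, smooth muscle and enterocyte lists is named, and of the textbook TCDD-induced genes only Cyp1a1.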

Additional observations from a re-analysis of the deposited data

Results flagged for a closer look

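2 members had all 3 pairs above 0 at a low dose and all 3 below 0 at 30 µg/kg. Jchain probe A_51_P150710 had a mean of 0.16 at 0.1 µg/kg, with pairs at 0.10, 0.32 and 0.04, against -1.57 at 30 µg/kg. Ighv1-47 had a mean of 0.14 at 0.01 µg/kg, with pairs at 0.25, 0.16 and 0.02, against -0.46 at 30 µg/kg. The difference between these doses was not tested for either probe. Over all probes tested, 4591 of 23756 were above 0 in all 3 pairs at 0.01 µg/kg and 3606 of 23526 at 0.1 µg/kg. At 30 µg/kg 25.0% of all probes were below 0 in all 3 pairs. How many of all probes did both was not counted, so the 2 members cannot be set against a background.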

How the results depend on the processing

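With 3 pairs per dose, the 7 member calls at 30 µg/kg depend on which pairs and which scaling enter. The means of these probes were below 0 in each alternative run. For runs that only drop pairs this was fixed in advance, since each probe was below 0 in all 3 pairs. With the replicate block all 7 were called, as was Ighv1-47 (8 members, 831 probes in all), and no other member's call changed. Leaving out 1 replicate gave 1 to 11 members called lower and 307 to 409 probes in all, against 7 and 761. Centring the arrays gave 452 probes in all (5 members), quantile normalization 239 (1 member) and dose 30 fitted alone 16 (0 members). The calls at 30 µg/kg were 21.6% higher in the main setting, 49.1% after centring and 51.9% after quantile normalization. Leaving out the 2 pairs with pancreas signal at 30 µg/kg, an alternative chosen after seeing the data, gave 123 probes in all and 0 members. For the slope, leaving out 1 replicate gave 0 to 8 members called, the 8 without replicate 3, against 0. The median of the immunoglobulin probes at 30 µg/kg was -0.48, and -0.64 to -0.38 under the alternatives. At 10 µg/kg 0 members were called in every alternative run. The cause of these differences was not tested. Without intensities, what dim spots limit is unknown.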

Other observations

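Many probes that ran with Jchain have no gene name here. Of 20838 probes with values on every array, the 20 with the highest correlation with the mean of the 2 Jchain probes over 24 pairs were taken, after seeing the data, and the pairs share vehicle animals, so the correlations (0.90 to 0.97) carry no p. Of the 20, 4 were heavy chain variable members (Ighv14-4, Ighv1-54, Ighv1-17 and Ighv1-33), 12 are not listed in the annotation used, and 4 are named for other genes: Med12, Sh3rf3, Adamdec1 and Pdgfra. The Med12 probe was the closest of all, at 0.97. At 30 µg/kg it was at -0.96, -0.91 and -0.57 (mean -0.82, limma adjusted p 0.016). The Sh3rf3 probe had a mean of -0.82 (adjusted p 0.012), Adamdec1 of -1.06 (adjusted p 0.066) and Pdgfra of -0.47 (adjusted p 0.16).

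Of the 14 candidate probes without all 6 values at 30 µg/kg, 5 had values in 2 pairs. Igkv6-14 was at -2.01 and -0.50 and the second Ighv14-4 probe at -0.11 and -0.25 in replicates 1 and 3, where a further kappa segment was at -0.50 and -0.55. Igkv8-16 was at -0.53 and -0.55 in replicates 2 and 3, and Irf4 at -0.05 and -0.47 in replicates 1 and 2. The 4 probes with a value in 1 pair lay between -1.19 and 0.00015, and 5 had none.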
